A study of Bos taurus with 4 samples.

Results

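Peroxiredoxins and the thioredoxin system were followed in bovine morulae (Bos taurus) that had been exposed to high glucose during the first cleavages. The set was made of 10 genes, PRDX1 to PRDX6, TXN, TXN2, TXNRD1 and SRXN1, and its members were all array probes annotated with 1 of these symbols. There were 25 such probes of 43794 on the array, and 10 genes of 15216 annotated symbols. Of these probes, 21 met the background criterion and were tested, and each of the 10 genes had at least 1 of them. For every gene, the brightest tested probe was above background in all HG and all CTL pools, so no gene entered through 1 group only. Of the 21 probes, 1 of TXN2 (EMBV3_02011) passed through CTL alone.

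High glucose embryos (HG) were cultured in synthetic oviductal fluid with 5 mM glucose from day 0 to day 3. Control embryos (CTL) had 0.2 mM glucose over the same days. All were then kept in the control medium to day 5 and collected as morulae 120 h after fertilization in vitro. The oocytes came from slaughterhouse ovaries, and the labels give the breed, Holstein, for 1 channel of each array. Embryos were pooled by 10, and each of 4 arrays set an HG pool against a CTL pool. HG carried Cy5 on the first pair of arrays (1 and 2) and Cy3 on the second pair (3 and 4). A pool measures 10 whole embryos at once, so fewer cells of a type and less RNA per cell cannot be told apart. No label says that the pools came from separate fertilizations, and the spread between arrays may be partly technical.

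Peroxiredoxins reduce hydrogen peroxide and organic peroxides with a reactive cysteine. Thioredoxin returns the oxidized cysteine of most of them to its reduced form, thioredoxin reductase then reduces thioredoxin with electrons from NADPH, and sulfiredoxin rescues peroxiredoxins that peroxide has overoxidized. The cytosol and the mitochondrion each hold their own peroxiredoxins and their own thioredoxin. In cultured embryos this chain is among the main routes that remove peroxide, a by-product of oxidative metabolism.

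Unless a pool signal is named, a value is the log2 of HG divided by CTL on 1 array, or its mean ± SD (n = 4 arrays). A gene is its brightest tested probe. Tests are limma's moderated test of the ratio against 0, with Benjamini-Hochberg adjustment over all 8874 genes or 20226 probes tested. No gene and no probe of the array passed the adjusted threshold of 0.05, so 0% of genes were called. By unadjusted p, 576 genes lay under 0.05. With 4 arrays, an exact sign-flip test of a single value cannot go below p = 0.125.

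The arrays did not all behave alike. Across the tested probes, which are not independent, the ratios of arrays 1 and 3 correlated at -0.444 (Pearson), those of arrays 2 and 4 at 0.225, and the other pairs between 0.0452 and 0.132. Of 26 cumulus and granulosa cell markers, 17 were measured, with medians of -2.02, 0.08, 2.11 and -0.25 on arrays 1 to 4. Their summed linear signal lay between 36062 and 245972 in HG pools and between 60211 and 134482 in CTL pools. The HG pool of array 3 had the highest sum and the HG pool of array 1 the lowest. The markers did not move equally. Between arrays 1 and 3, LUM went from -5.15 to 3.32, THBS1 from -5.05 to 4.39, STAR from -1.92 to 2.65 and INHBA from -2.02 to 2.11. CYP19A1 (-0.83 and -0.42), TNFAIP6 (0.60 and 1.79), COL1A1 and FN1 kept the same sign on both. The cell type behind the marker signal was not tested. Of the 26, 12 were above background in all 8 pools, STAR and INHBA among them, 12 in some pools, and AMH and FOXL2 in 0 of 8 pools. Among 11 morula markers, POU5F1, NANOG, KRT8, KRT18 and TFAP2C were measured, while SOX2, SALL4, CDH1, CDX2, GATA3 and TEAD4 did not meet the background criterion. The summed linear signal of these 5, in which the brightest genes weigh most, was 24245 to 49385 in HG pools and 55055 to 67995 in CTL pools. The groups did not overlap, and the HG pool of array 3 was lowest. Of single genes tested, 2.24% had all HG pools below all CTL pools. KRT8 (mean -1.81) and KRT18 (-1.39) had the lowest means among them, though KRT18 (0.29) and TFAP2C (0.73) were above 0 on array 1. The mean of POU5F1 was -0.54 and that of TFAP2C -0.09. NANOG had a mean of 0.47, with 1.19 and 0.78 on arrays 2 and 4. The share of probes above background was 54.7 to 63.2% in HG pools and 50.3 to 57.1% in CTL pools. The direction of each ratio follows the labelled dyes, and the files do not settle whether those of arrays 1 and 3 are right. Each member is therefore also given on arrays 2 and 4 alone and with the sign of array 3 turned. The part of the cumulus and morula marker signal in the members' values was not tested.

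All 6 cytosolic members had a mean below 0, although PRDX2, TXNRD1 and SRXN1 came out above 0 if array 1 was turned. Of the 10 genes, 7 had a mean below 0, against 53.8% of all genes tested. PRDX1, TXN and PRDX3 were lower in HG on all 4 arrays, 3 of 10 genes against 8.03% of all genes, and 0 of 10 were higher on all 4 arrays, against 6.03%. The same 3 had an unadjusted p under 0.05 in this direction, against 4.11% of all genes, and 0 of 10 had one in the other direction, against 2.38%. None passed the adjusted threshold. Of the 21 tested probes, the same 3 were lower in HG on all 4 arrays, against 7.19% of all probes tested. In 0 of 10 genes did all HG pools lie below all CTL pools, against 2.24% of all genes, or all above them, against 1.32%. The median over the 10 gene means was -0.39, and that over all genes tested was -0.02.

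**Figure D1:**
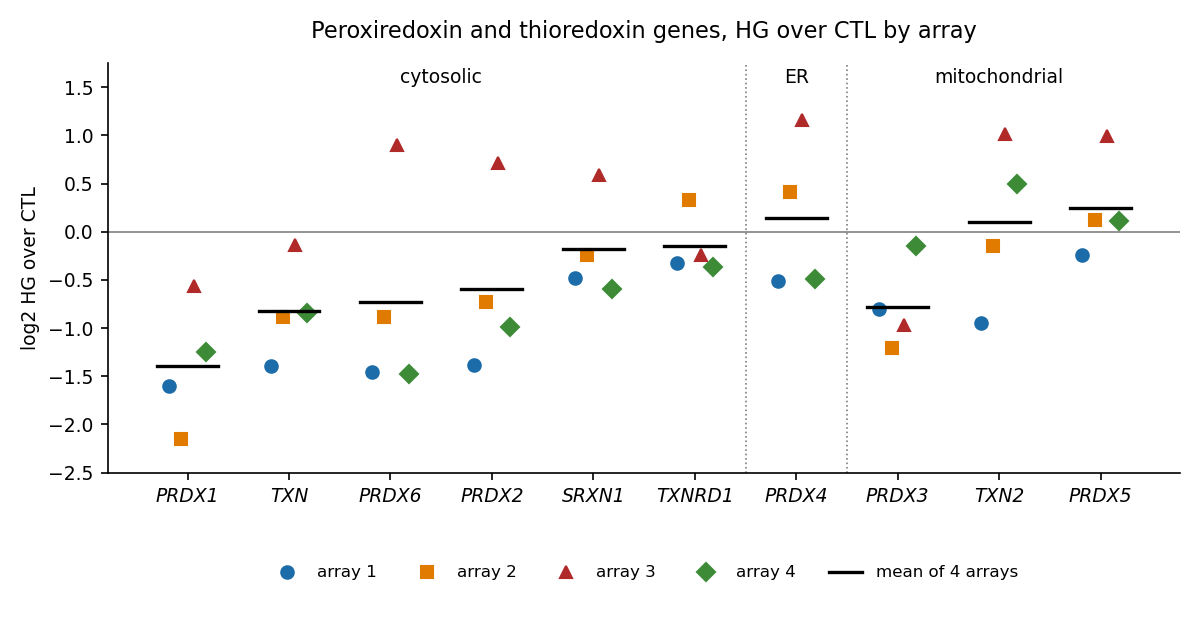
Log2 ratio of HG over CTL for each of the 10 genes (brightest tested probe), with 1 point per array and a bar at the mean of the 4 arrays. PRDX1, TXN and PRDX3 lie below 0 on every array, while PRDX6, PRDX2 and SRXN1 lie above 0 on array 3 alone.

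PRDX1, the most widely expressed cytosolic peroxiredoxin, had the lowest mean of the set. Its normalized log2 signals were 10.41, 10.93, 12.29 and 11.81 in the HG pools of arrays 1 to 4, and 12.02, 13.09, 12.86 and 13.05 in the CTL pools. Within each array the HG pool was the dimmer one, although the HG pool of array 3 lay above the CTL pool of array 1, so the groups overlapped. The ratios were -1.60, -2.15, -0.57 and -1.24, with a mean of -1.39 ± 0.66, which is 2.62-fold lower in HG (limma, SE 0.28, unadjusted p = 0.00329, adjusted p = 0.762). On arrays 2 and 4 the mean was -1.70, and with array 3 turned it was -1.11. With HG in Cy5 (arrays 1 and 2) the mean was -1.88, and with HG in Cy3 (arrays 3 and 4) it was -0.90. PRDX1 had 1 probe on the array.

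PRDX6, which differs from the others in having a single catalytic cysteine and a phospholipase activity, was measured by 5 probes. The brightest had log2 signals of 12.74, 12.93, 14.82 and 12.88 in HG pools, and 14.20, 13.82, 13.92 and 14.35 in CTL pools. The HG pools of arrays 1, 2 and 4 lay below every CTL pool, and the HG pool of array 3 lay above them all. The ratios were -1.46, -0.89, 0.90 and -1.48, with a mean of -0.73 ± 1.12 (limma, adjusted p = 0.879). The mean was -1.27 without array 3, -1.18 on arrays 2 and 4, and -1.18 with array 3 turned.

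All 5 PRDX6 probes had these signs. For 1 of them (EMBV3_34889), the HG pool of array 4 (11.57) lay above the CTL pool of array 3 (11.49). Its lowest ratio was on array 2. On array 1 the ratios of the 5 probes lay between -1.78 and -0.86, and on array 2 between -1.47 and -0.89. On array 3 they lay between 0.69 and 1.13, and on array 4 between -1.48 and -0.36. The SD between probes of an array had a median of 0.31, while the SD between arrays of the probe means was 1.08. The spread of this gene thus lay between arrays rather than between probes. The difference of array 3 minus array 1 was 2.36 for PRDX6, the highest of the 10 members, against a median of 4.57 for the 17 cumulus markers and 0.01 for all genes tested. The cumulus marker medians had the sign of PRDX6 on arrays 1, 3 and 4. On array 4 the cumulus markers ranged from -1.63 for TIMP1 to 0.48 for GJA1, with a median of -0.25. COL3A1 (0.31) and INHBA (0.04) were also above 0 there, and the other measured markers were below 0. The summed cumulus signal of array 4 was 79370 in the HG pool and 125617 in the CTL pool. The part of this signal in PRDX6 was not tested.

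PRDX2, a cytosolic peroxiredoxin abundant in red cells, had 2 tested probes. Its brightest probe had log2 signals of 11.18, 11.72, 13.01 and 11.90 in HG pools, and 12.56, 12.44, 12.29 and 12.89 in CTL pools. As for PRDX6, the HG pools of arrays 1, 2 and 4 lay below every CTL pool and the HG pool of array 3 above them. The ratios were -1.38, -0.72, 0.72 and -0.99 (mean -0.59 ± 0.92, limma adjusted p = 0.889). The other probe read -0.78, -0.65, 0.02 and -1.15 (mean -0.64 ± 0.49, limma unadjusted p = 0.0319, adjusted p = 0.692 over probes). The probes thus had nearly the same mean but differed in their size on array 3. In the authors' deposited log2 ratios the other probe was at -0.12 on array 3. The brightest probe averaged -0.86 on arrays 2 and 4, and -0.95 with array 3 turned. The difference of array 3 minus array 1 was 2.10.

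**Figure D2:**
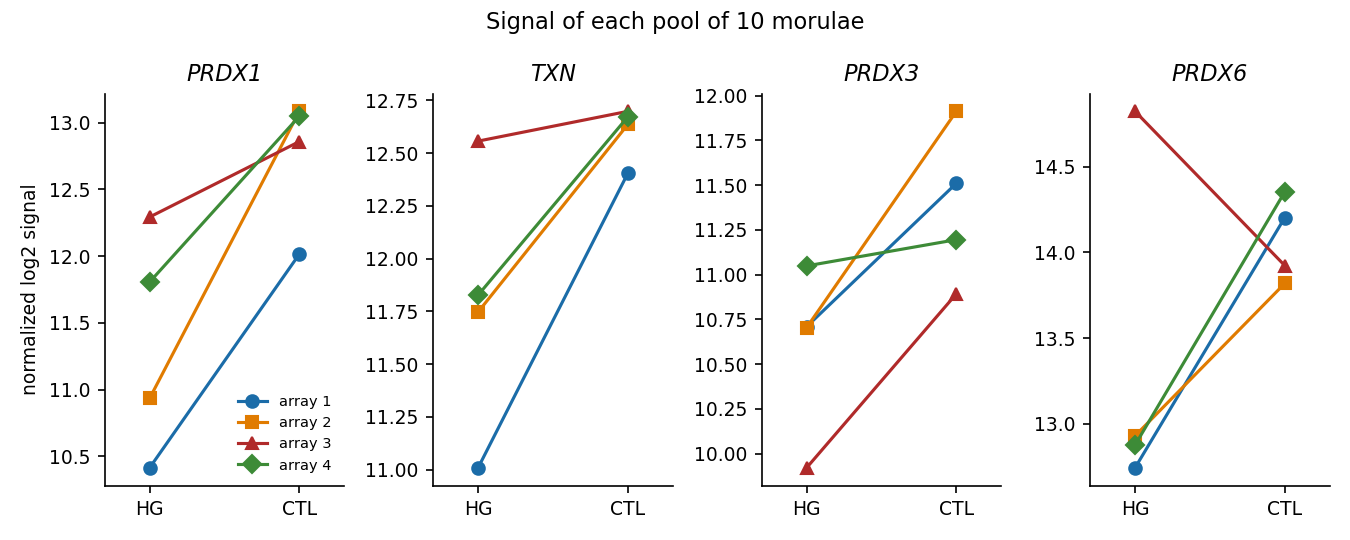
Normalized log2 signal of each HG and CTL pool for PRDX1, TXN, PRDX3 and PRDX6, with a line joining the 2 pools of an array (the vertical scale differs between panels). The HG pool is dimmer on every array for PRDX1, TXN and PRDX3, and on 3 of 4 arrays for PRDX6, where the HG pool of array 3, at 14.82, is the brightest of all.

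PRDX4 resides in the endoplasmic reticulum, where it uses peroxide to drive disulfide formation. Its log2 signals were 13.01, 13.72, 14.81 and 13.21 in HG pools, and 13.53, 13.30, 13.64 and 13.70 in CTL pools. The pools of both groups were interleaved, with the HG pool of array 3 the brightest. The ratios of -0.51, 0.41, 1.16 and -0.49 gave a mean of 0.14 ± 0.81 (limma, adjusted p = 0.998). The mean was -0.04 on arrays 2 and 4, -0.20 without array 3 and -0.44 with array 3 turned, so its sign depended on array 3. The difference of array 3 minus array 1 was 1.67.

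PRDX3, the peroxiredoxin of the mitochondrial matrix, had log2 signals of 10.71, 10.70, 9.92 and 11.05 in HG pools, and 11.51, 11.91, 10.89 and 11.20 in CTL pools. The HG pool was the dimmer one on every array, and the groups overlapped through the CTL pool of array 3, which lay below the HG pool of array 4. The ratios were -0.80, -1.21, -0.97 and -0.15, with a mean of -0.78 ± 0.46, which is 1.72-fold lower in HG (limma, SE 0.22, unadjusted p = 0.0138, adjusted p = 0.762). Here array 4 was nearest to 0, whereas for most members array 3 was the highest. The difference of array 3 minus array 1 was -0.17, the 1 value below 0 among the members, so PRDX3 did not follow the direction of the cumulus markers there. The mean was -0.68 on arrays 2 and 4, but -0.30 with array 3 turned. The value rests on 1 of 3 probes. The other probes were above background in at most 1 of 8 pools and read between -0.25 and 0.24.

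PRDX5, found in mitochondria, peroxisomes and cytosol, read near 0. Its 2 probes had ratios of -0.24, 0.12, 0.99 and 0.11 (mean 0.25 ± 0.53, limma adjusted p = 0.984) and of 0.03, 0.41, 0.16 and -0.58 (mean 0.0043 ± 0.42, limma adjusted p over probes = 1.00). The probes had opposite signs on arrays 1 and 4. The brighter probe was at 0.11 on arrays 2 and 4, at -0.0034 without array 3 and at -0.25 with array 3 turned.

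TXN, the cytosolic thioredoxin, had log2 signals of 11.01, 11.75, 12.56 and 11.83 in HG pools, and 12.40, 12.64, 12.70 and 12.67 in CTL pools. The CTL pools were close together, and of the HG pools that of array 3 alone reached into their range. The ratios were -1.40, -0.89, -0.14 and -0.85, with a mean of -0.82 ± 0.52, which is 1.76-fold lower in HG (limma, SE 0.24, unadjusted p = 0.0156, adjusted p = 0.762). The mean was -0.87 on arrays 2 and 4, -0.75 with array 3 turned, and -0.12 with array 1 turned. TXN had 1 probe.

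TXN2, the mitochondrial thioredoxin that serves PRDX3, was measured by 6 probes, all tested. The brightest had log2 signals of 8.74, 9.56, 10.32 and 9.76 in HG pools, and 9.69, 9.71, 9.31 and 9.26 in CTL pools. The HG pools held both the dimmest and the brightest of the 8, and spread more widely than the CTL pools. The ratios were -0.94, -0.15, 1.01 and 0.49 (mean 0.10 ± 0.84, limma adjusted p = 0.999). The mean was 0.17 on arrays 2 and 4, and -0.40 with array 3 turned. Over its 6 probes the means lay between -0.44 and 0.10, and 4 of the 6 were below 0. The lowest was that of the dimmest probe, which passed the background limit through CTL alone, and without it the means lay between -0.30 and 0.10, 3 of 5 below 0. All 6 probes were below 0 on array 1, with values between -1.15 and -0.28, and all 6 were above 0 on array 4, between 0.03 and 0.49.

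**Figure D3:**
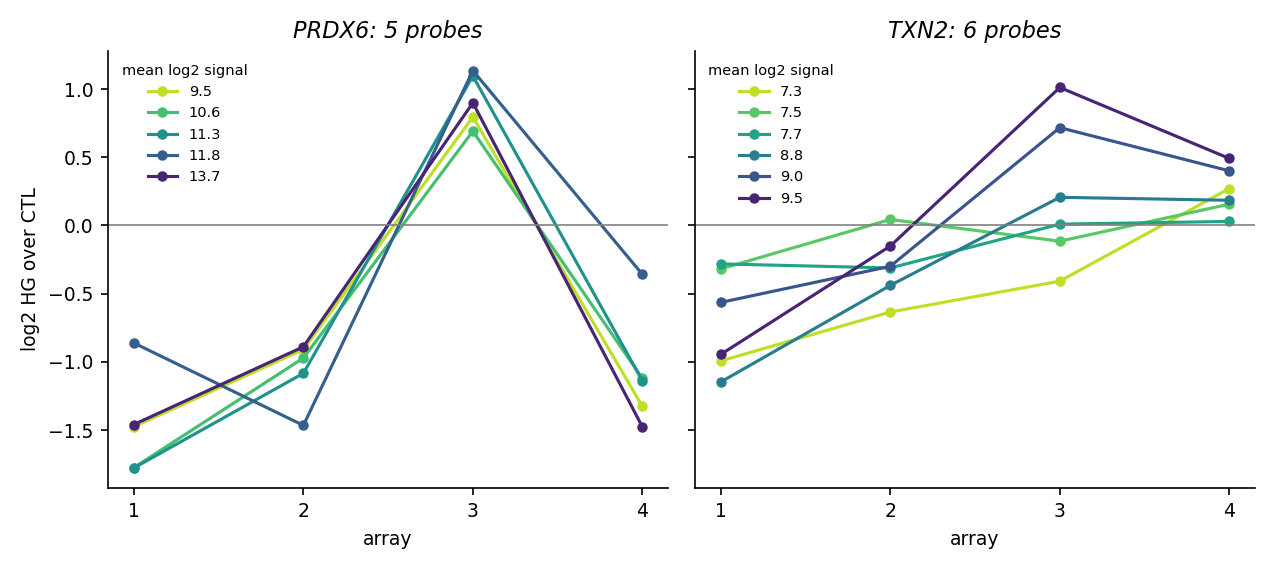
Log2 ratio of HG over CTL on each array for the 5 tested probes of PRDX6 and the 6 of TXN2, with a line joining the values of a probe and the colour giving its mean log2 signal. The PRDX6 probes share their sign on each array at every signal. The TXN2 probes differ most on array 3, between -0.41 for the dimmest, tested through CTL alone, and 1.01 for the brightest.

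TXNRD1, the cytosolic thioredoxin reductase, was the member with the smallest spread between arrays. Its log2 signals were 14.71, 14.95, 14.68 and 14.60 in HG pools, and 15.03, 14.62, 14.93 and 14.97 in CTL pools. The groups overlapped, and the ratios of -0.32, 0.33, -0.25 and -0.37 had a mean of -0.15 ± 0.32 (limma, adjusted p = 0.996). The mean was -0.02 on arrays 2 and 4, and -0.03 with array 3 turned. Its difference of array 3 minus array 1 was 0.08. The median pixel of this spot reached 45151, below the scanner ceiling. The other TXNRD1 probe was above background in 0 HG pools and 2 CTL pools and was not tested.

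SRXN1, the sulfiredoxin that repairs overoxidized peroxiredoxins, had log2 signals of 9.25, 9.03, 11.09 and 9.84 in HG pools, and 9.73, 9.26, 10.50 and 10.43 in CTL pools. The brightest pool of each group was that of array 3, and the groups overlapped. The ratios were -0.48, -0.24, 0.59 and -0.59 (mean -0.18 ± 0.54, limma adjusted p = 0.996), with a mean of -0.42 on arrays 2 and 4, and -0.48 with array 3 turned. PRDX2, PRDX6 and SRXN1 had the same signs, above 0 on array 3 and below 0 on the other arrays, 3 of 10 members against 9.21% of all genes tested. This pattern was taken from the values of these members, so the 2 shares are a description and not a test.

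Cytosolic members were set against mitochondrial ones. Per array, the median of PRDX1, PRDX2, PRDX6, TXN, TXNRD1 and SRXN1 was -1.39, -0.81, 0.23 and -0.92 on arrays 1 to 4. That of PRDX3, PRDX5 and TXN2 was -0.80, -0.15, 0.99 and 0.11. Both medians were highest on array 3 and lowest on array 1, as the cumulus markers were. Their difference, cytosolic minus mitochondrial, was -0.59, -0.66, -0.77 and -1.03, with a mean of -0.76 ± 0.19. It was below 0 on all 4 arrays and varied less between arrays than either median (SD 0.68 and 0.74). The mitochondrial median, however, is the value of 1 of 3 genes, PRDX3 on array 1, TXN2 on array 2 and PRDX5 on arrays 3 and 4. PRDX3 lay above the cytosolic median on arrays 1 and 4, but below it on array 2 (-1.21) and array 3 (-0.97). No test was made of the cytosolic minus mitochondrial difference, since it is a score over few genes chosen with earlier results known.

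The difference between compartments did not hold for each gene. PRDX3, at -0.78, lay among the cytosolic members, and TXNRD1 and SRXN1, at -0.15 and -0.18, lay near the mitochondrial PRDX5 and TXN2. Without PRDX5 the mean difference was -0.38, but on array 3 the difference then lay above 0. There PRDX3 was at -0.97 and TXN2 at 1.01, with their midpoint below the cytosolic median of 0.23. With the mean over all tested probes of a gene, the mean difference was -0.49. With array 3 turned it was -0.38.

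**Figure D4:**
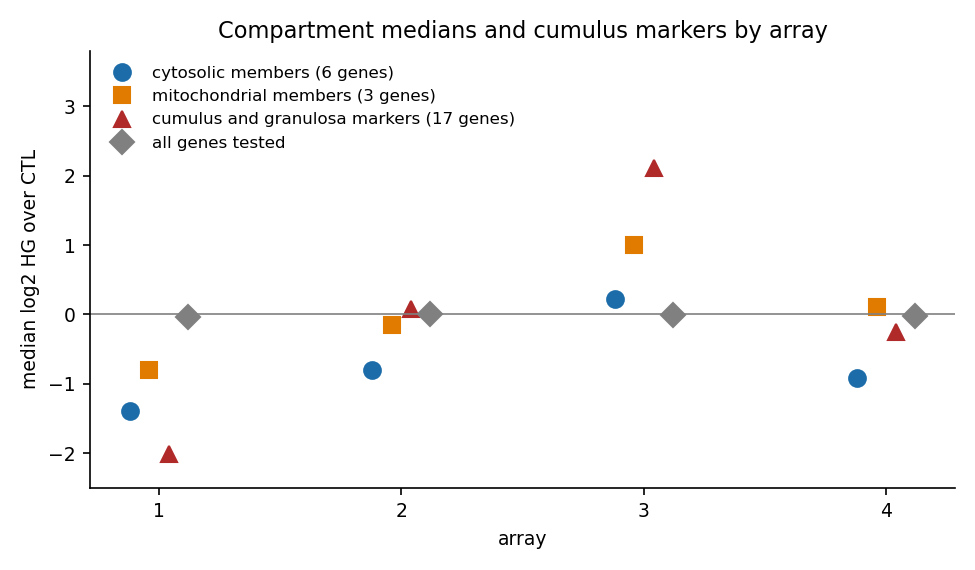
Median log2 ratio of HG over CTL on each array for 6 cytosolic members, 3 mitochondrial members, 17 measured cumulus and granulosa markers and all genes tested. The cytosolic median is below the mitochondrial one on each array, by 0.59, 0.66, 0.77 and 1.03, while both lie highest on array 3, where the cumulus median is 2.11.

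A cytosolic member and one grouped here as mitochondrial were compared within arrays, in pairs chosen after their values were seen and without a test. PRDX5, as stated above, is also found in the cytosol. TXN minus TXN2 was -0.45, -0.74, -1.15 and -1.34, a mean of -0.92 ± 0.40. The mean lay between -0.92 and -0.38 over the 6 TXN2 probes, and with 5 of these the difference was below 0 on every array. PRDX1 minus PRDX5 was -1.36, -2.27, -1.56 and -1.35 (mean -1.64 ± 0.43), below 0 on 4 of 4 arrays with either PRDX5 probe. PRDX1 minus PRDX3 was -0.80, -0.94, 0.41 and -1.10 (mean -0.61 ± 0.69), so array 3 ran the other way. The cytosolic member of these chosen pairs had the lower ratio on every array for TXN with TXN2 and for PRDX1 with PRDX5. For PRDX1 with PRDX3 it had the lower ratio on 3 of 4 arrays. PRDX1 has the lowest mean of the set and PRDX5 the highest, so the sign of their pair follows from the choice. By the mean of the 4 arrays, the other cytosolic peroxiredoxins, PRDX2 (-0.59) and PRDX6 (-0.73), were not lower than PRDX3 (-0.78). On arrays 2 and 4 they were lower, at -0.86 and -1.18 against -0.68. With array 3 turned they were also lower, at -0.95 and -1.18 against -0.30. With array 1 turned, however, PRDX2 (0.095) and PRDX6 (-0.0018) lay above PRDX3, whose highest mean under any alternative was -0.30. With array 3 turned, TXN minus TXN2 averaged -0.34, PRDX1 minus PRDX5 -0.86 and PRDX1 minus PRDX3 -0.81.

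The members also leaned with the dye. In a fit with a dye term, 19 of 21 tested member probes read lower in Cy5 than in Cy3, against 50.4% of all tested probes. These probes are not independent, since 5 were of PRDX6 and 6 of TXN2. Among the brightest probes of the member genes, that of TXNRD1 alone read higher in Cy5 (0.15). Of the 21, 3 had an unadjusted p under 0.05 for this term, all of them TXN2 probes, and the lowest adjusted p was 0.596 (limma). Dye orientation coincides with arrays 1 and 2 against arrays 3 and 4, so dye and array cannot be told apart. For TXN the mean was -1.14 with HG in Cy5 and -0.49 with HG in Cy3, and for PRDX3 it was -1.01 and -0.56. For TXN2 it was -0.55 and 0.75, opposite signs in the 2 orientations.

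The way the arrays are used moved the members unequally. PRDX1, PRDX3 and TXN had a mean below 0 under each of the 14 alternatives that moved it, and PRDX6 under each of 15. PRDX6, however, came to -0.0018 with array 1 turned, and PRDX1 ranged from -1.70 to -0.59. PRDX1 passed the adjusted threshold in 1 setting, arrays 2 and 4 alone (limma, adjusted p = 0.0324, and between 0.426 and 1.00 in the other settings). That fit has 1 residual degree of freedom for each gene and called 33 genes.

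**Figure D5:**
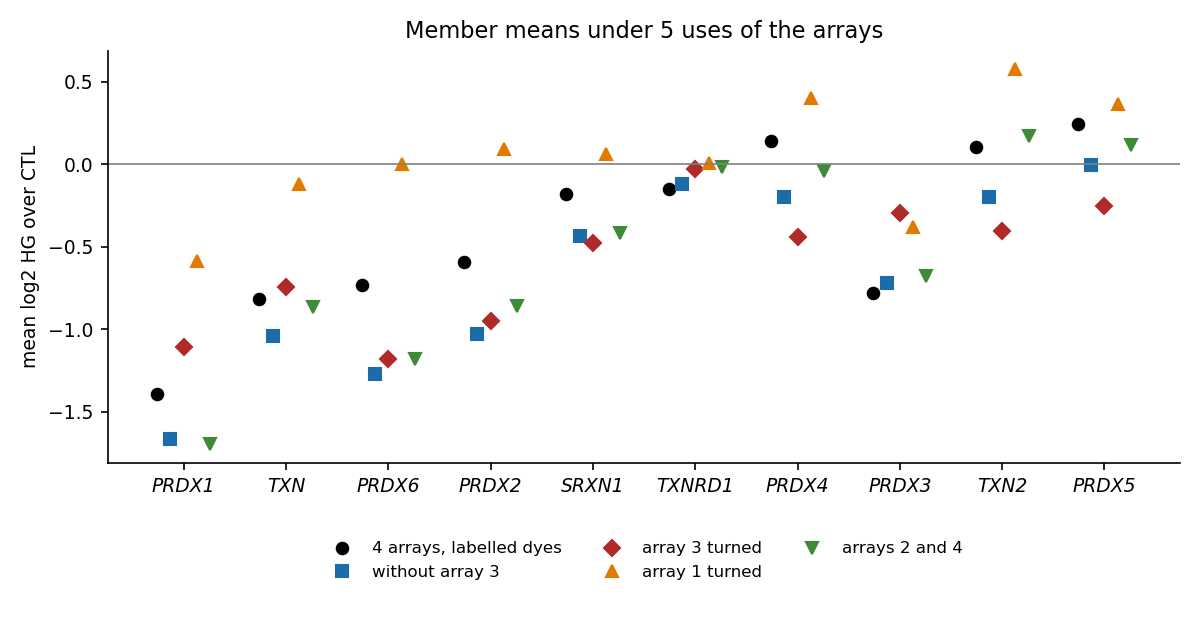
Mean log2 ratio of HG over CTL of each member with all 4 arrays by their labelled dyes, without array 3, with the sign of array 3 or of array 1 turned, and on arrays 2 and 4 alone. PRDX1, TXN and PRDX3 stay below 0 in each, PRDX6 reaches -0.0018 with array 1 turned, and TXN2, PRDX5, PRDX4, PRDX2, TXNRD1 and SRXN1 change sign in at least 1 setting.

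Other genes that remove peroxide or superoxide were listed as well, and none passed the adjusted threshold. Of 13 listed genes 10 were measured, and all 10 had a mean below 0 (53.8% of all genes did), though GPX4, SOD1, SOD2 and CAT did not under every alternative, and GPX7, GPX8 and GSTP1 were not recomputed under them. The list median was -0.33, with medians of -0.84 on array 1 and 0.24 on array 3. The difference of array 3 minus array 1, on which the cumulus markers had a median of 4.57, was 4.16 for GPX8, 2.63 for GPX7, 2.20 for GPX4 and 2.15 for GSTP1, and the part of the cumulus signal was not tested. All 10 were below 0 on both array 2 and array 4, against 28.0% of all genes tested, and 6 of the 10 members of the peroxiredoxin and thioredoxin set were. Several of these values were close to 0, however. On array 4 GPX8 was at -0.0046, SOD1 at -0.0047, CAT at -0.020 and SOD2 at -0.047, and on array 2 GPX7 was at -0.0064. PARK7, a redox-sensitive chaperone, read -0.84, -1.16, -0.59 and -0.91 (mean -0.87 ± 0.23, limma adjusted p = 0.762). Glutathione reductase, GSR, which recycles glutathione with NADPH as TXNRD1 recycles thioredoxin, was at -0.68 ± 0.54 and lower on all 4 arrays. The glutathione peroxidases GPX1 and GPX4 were at -0.65 ± 0.72 and -0.79 ± 1.04, with array 3 above 0 in both, at 0.14 and 0.43. The superoxide dismutases were closer to 0, SOD1 at -0.20 ± 0.44 and SOD2 at -0.16 ± 0.47. Catalase, CAT, was at -0.0031 ± 0.51.

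Other thioredoxin-like genes had no common direction. Of 18 listed, 13 were measured, 6 with a mean below and 7 above 0, and none passed the adjusted threshold. TXNIP, which binds and inhibits thioredoxin and is induced by glucose, read -0.06, 0.73, 1.74 and 0.02 (mean 0.61 ± 0.84, limma adjusted p = 0.859). Its mean was 0.23 without array 3, and -0.26 with array 3 turned. TXNDC17, a cytosolic thioredoxin-like protein, was at -0.70 ± 0.51 and TMX2 at -0.47 ± 0.31, both lower on all 4 arrays. TMX4, a membrane thioredoxin of the endoplasmic reticulum, was at 0.73 ± 0.38 and higher on all 4. Neither TXNRD2, the mitochondrial reductase, nor TXNRD3 met the background criterion.

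Clients of thioredoxin were mixed. Of 8 listed, 7 were measured, 4 with a mean below 0. The ribonucleotide reductase subunit RRM1, which takes electrons from thioredoxin, was at -0.46 ± 0.30, and MAP3K5, a stress kinase held inactive by reduced thioredoxin, at -0.20 ± 0.13, both lower on all 4 arrays, although MAP3K5 had a mean of 0.08 with spot medians. Of 4 glutaredoxins, 2 had means below and 2 above 0. Of 3 sestrins, 2 were measured, 1 below and 1 above 0. Of 18 genes of the NRF2 pathway, which drives transcription of PRDX1, TXN, TXNRD1 and SRXN1 in mouse and human cells, 11 were measured, 5 with a mean below and 6 above 0, and their median was 0.01. Among them FTH1, the ferritin heavy chain, was at -0.49 ± 0.66 and SQSTM1 at -0.75 ± 1.33, both above 0 on array 3. None of these genes passed the adjusted threshold.

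Genes nearest to PRDX1, PRDX3 and TXN were sought by the root mean square difference of the 4 ratios over 8864 other genes, as a description over 4 arrays. The nearest to PRDX1 were ANXA2 (0.25), SLC7A7 (0.44) and SPINT2 (0.48). The nearest to PRDX3 were STARD3NL (0.16), EPB41L5 (0.19) and SLC7A5 (0.20). The nearest to TXN were RHOB (0.11), YBX1 (0.15) and HADH (0.16). PRDX1 had no gene as close as PRDX3 and TXN had, and ANXA2, its nearest, read -1.52, -1.81, -0.57 and -0.88.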

How the data were processed

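The deposited scanner files hold raw spot intensities for Cy3 and Cy5 with local background, uncorrected, per the file headers. RNA was amplified and labelled chemically, per the labels' protocols. The deposited table holds the authors' log2 ratios, which ran as Cy5 over Cy3 (correlations with the scanner ratios of 0.976 to 0.993 on arrays 1 to 4, column medians between -0.01 and 0.02). Their background correction and normalization are not given in the sources used here. The submitters' processing notes name limma. The 4 arrays were areas of 1 slide, by the names of the deposited files. A mark for ignored spots, per the file headers, set 29 to 151 spots per array to missing.

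Spot means minus local background medians were corrected with normexp (offset 50) and loess within each array (limma 3.58.1, R 4.3.3), in which control spots had weight 0. Pool signals were further scaled between arrays with Aquantile. The background limit of each channel was set 2 SD over the mean log2 signal of its 153 negative controls. A probe was tested if it passed this limit in every HG pool or in every CTL pool. Platform symbols named 21790 probes and were updated through RefSeq synonyms (ARS-UCD2.0). The number of arrays limits the precision.

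The members, lists and array alternatives were chosen with earlier results of these data known. Named were all members, up to 4 genes of each list by smallest p, TXNIP, CAT, SOD1, SOD2, GSR and TXNRD2 where measured, and the 3 nearest genes of PRDX1, PRDX3 and TXN. The rule named 44 genes, of which 34 appear here, a choice made for brevity with their values known. Other list and marker genes were named to describe the samples.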

Additional observations from a re-analysis of the deposited data

Results flagged for a closer look

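In 3 of 58 results a single array lay far from the rest, a number near what chance gives, about 1 in 20. GSR had -1.49 on array 2, and -0.44 to -0.35 elsewhere. FTH1 was at 0.50 on array 3, with the remaining arrays at -0.86 to -0.76. The median of the 5 measured morula markers was -1.37 on array 3 and -0.38 to -0.17 elsewhere. No gene of the peroxiredoxin and thioredoxin set stood out in this way.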

How the results depend on the processing

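Under the 19 alternatives, 0 genes and 0 probes passed the adjusted threshold, except on arrays 2 and 4 alone, where 33 genes and 1 probe did. With 2 arrays the spread of a gene rests on 1 difference. PRDX1 (-1.70, adjusted p = 0.0324) and SLC7A7 (-1.41, adjusted p = 0.0440) were among the 33. PRDX1, PRDX3, PRDX6, TXN, GSR and PARK7 kept their sign under all 19, but the dye term, Aquantile and both other filters on dim probes left the means of these 6 genes as they were.

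Signs changed mainly with the sign or absence of array 1 or 3. With array 3 turned, PRDX4 was at -0.44, PRDX5 at -0.25, TXN2 at -0.40, TXNIP at -0.26 and CAT at 0.12. With array 1 turned, PRDX2 was at 0.095, TXNRD1 at 0.0090, SRXN1 at 0.061, GPX4 at 0.090, SOD1 at 0.061 and SQSTM1 at 0.27. Leaving out 1 array in turn gave -0.20 to 0.36 for PRDX4, -0.0034 to 0.41 for PRDX5, -0.20 to 0.45 for TXN2, -0.24 to 0.15 for CAT and -0.35 to 0.032 for SOD2. On arrays 2 and 4 PRDX4 was at -0.040. TXN2 was at -0.0087 with median centring and at -0.13 as the mean over its probes. CAT was at 0.0048 with offset 0 and at 0.065 in the authors' deposited log2 ratios. MAP3K5 was at 0.081 with plain subtraction of spot medians and at 0.077 with spot medians. The causes were not tested.

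The mean over arrays of the cytosolic minus mitochondrial difference stayed below 0 throughout, although without PRDX5 the difference was above 0 on array 3. The mean was -0.54 with plain subtraction of spot medians, -0.55 with spot medians, -0.38 with array 3 turned and -0.47 with array 1 turned. It was -0.49 as the mean over tested probes, -0.38 without PRDX5 and -0.50 as a mean over genes. Leaving out 1 array in turn gave -0.82 to -0.67. With median centring, 492 genes lay lower and 110 higher by unadjusted p under 0.05, against 365 and 211 with loess. The main fit is already paired, because each array ratio sets an HG pool against its CTL pool. With 1 group of ratios, no further pairing was possible.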
